A study of Bos indicus and Bos taurus with 17 samples.

Results

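The change in gene expression from D90 (mid-lactation) to D250 (late lactation) was compared between Jersey and Kashmiri cattle, gene by gene, in cells caught from milk. For each gene the log2 ratio of D250 over D90 was taken in each breed, after adding 1 FPKM to every value, and the Kashmiri ratio was subtracted from the Jersey ratio. FPKM is the number of fragments sequenced from a gene, divided by its transcript length and by the mapped reads. A positive difference means that the Jersey ratio was the larger. The deposited table has 61264 entries, and 25121 of them have a gene name, which gives 21631 distinct names. A gene was kept when it had at least 1 FPKM in at least 1 of the 4 groups of breed and day and was not listed at 0 in any of them. These rules gave 11868 genes, of which 9127 had at least 1 FPKM in all 4 groups. A further 9624 names were under 1 FPKM in all 4 groups. Another 139 names passed that limit but were listed at 0 in at least 1 group, and 28 of these were above 500 FPKM in another group, among them CSN2, CSN1S1, PAEP, SPP1 and FTH1. They have no difference here. At the limit, FBXO36 with a highest value of 1.00 FPKM was kept and ZCCHC4 with 0.998 was not.

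The 4 groups hold 11 of the 17 samples that the labels name: 3 Kashmiri samples at D90 and 3 at D250, and 2 Jersey samples at D90 and 3 at D250. All D90 samples were labelled July and all D250 samples December, so that day in milk and season cannot be told apart. Both breeds were kept on 1 farm in Kashmir, with the same housing, and no group received a treatment. The 3 Kashmiri samples at D90 were labelled as lactation 2, while at D250 they were 1 of lactation 2 and 2 of lactation 3. For Jersey cattle the labels gave 1 sample each of lactation 2 and 3 at D90 and 3 of lactation 2 at D250, and they do not tie samples to cows. Per the methods, the same cows of each breed were sampled on all days and were all in the same lactation, which differs from these lactation labels. The authors deposited 1 Cuffdiff value per gene and group. No spread between cows, interval or test can therefore be given, the depth behind each value is unknown, and every difference described is between single group values with no replicate check.

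Milk is made by the epithelial cells that line the alveoli of the udder, which synthesise fat, lactose and casein and release fat as droplets wrapped in their own membrane. After the peak of lactation the alveoli gradually lose secretory cells, and the milk carries a changing mixture of shed epithelial cells, neutrophils, macrophages and lymphocytes. Prolactin acting through STAT5 maintains secretion, whereas STAT3 and inflammatory cytokines are known from the regression of the gland after drying off.

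The cells had been bound to magnetic beads with an antibody to keratin 18, a protein of simple epithelia, yet KRT18 itself was low in these values. KRT18 had 1.59 (D90) and 4.51 FPKM (D250) in Jersey cattle, against 9.13 and 11.5 FPKM in Kashmiri cattle. By contrast the pan-leukocyte gene PTPRC had 119.6 (D90) and 320.2 FPKM (D250) in Jersey cattle, against 166 and 87.9 FPKM in Kashmiri cattle. The leukocyte genes LSP1 and ITGB2, used by the study as signs of other cell types, had 170.03 and 179 FPKM in Jersey cattle at D90 and 254 and 153 in Kashmiri cattle at D90. The study checked purity at D90 by quantitative PCR, against milk somatic cells not bound to beads. It reported more KRT18 and CSN2, and less LSP1, HBA and CD18 (ITGB2), in the bound cells. That is a relative measure between cell preparations, unlike the FPKM levels given here. KRT19, another keratin, had 38.2 (D90) and 835 FPKM (D250) in Jersey cattle, against 295 and 1319 FPKM in Kashmiri cattle. It was above PTPRC in each group except Jersey cattle at D90. Genes of epithelial cells and of leukocytes were thus both present, and the samples are called milk cells below. CSN2, the gene of beta-casein, was listed at 0 in 3 of the 4 groups and had 1068 FPKM in Jersey cattle at D90. The study's published CSN2 values were far higher in all 4 groups, and the reason for this disagreement was not tested, so the CSN2 level is uncertain. GAPDH, a gene that every cell uses, was also listed at 0 in 3 of the groups and had 0.0328 FPKM in the other. A 0 in this table can thus be a failed estimate and is not read as low expression. In such a mixture, fewer cells of a type and less RNA per cell cannot be told apart.

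Over all 11868 genes the median log2 ratio was 0.13 in Jersey cattle and 0.04 in Kashmiri cattle, and the median difference was 0.10, with a range from -6.76 to 5.62. Both breeds changed in the same direction, by any amount, for 7085 genes (59.7%). Across genes, which are not independent replicates, the Jersey and Kashmiri ratios had a Pearson r of 0.29 and a Spearman rho of 0.26 (n = 11868 genes). A log2 ratio of at least 1 or at most -1, a doubling or a halving on this scale, was then used as the limit for a change within a breed. At D250, 1786 genes (15.0%) were higher and 430 (3.62%) lower in the Jersey group. The Kashmiri numbers were more even, with 998 genes (8.41%) higher and 967 (8.15%) lower.

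Few genes passed this limit in both breeds. Of the 624 genes that did, 443 (3.73% of all) were higher at D250 in both, 73 (0.615%) were lower in both, 85 (0.716%) were higher in Jersey and lower in Kashmiri cattle, and 23 (0.194%) were lower in Jersey and higher in Kashmiri cattle. Over the 9127 genes with at least 1 FPKM in all 4 groups, these numbers were 197, 65, 82 and 13. Many of the 443 thus had a value under 1 FPKM in a group, and their excess over the 73 depends on the FPKM limit. A change in 1 breed was the more frequent pattern. Higher values in Jersey cattle alone were found for 1258 genes (10.6%) and lower values for 334 (2.81%), and in Kashmiri cattle alone 532 genes (4.48%) were higher and 809 (6.82%) lower. The other 8311 genes (70.0%) passed the limit in neither breed.

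A difference between the breeds of at least 2 on the log2 scale was found for 484 genes (4.08%), and one of at most -2 for 101 genes (0.851%). Of the 484 genes, 265 were higher at D250 in Jersey cattle alone, 109 were lower in Kashmiri cattle alone, 85 had opposite changes and 24 were higher in both breeds but more so in Jersey cattle. Of the 101 genes, 44 were lower in Jersey cattle alone, 34 were higher in Kashmiri cattle alone and 23 had opposite changes. B3GNT5 at 2.0005 lay just inside the upper limit and TGIF1 at 1.996 just outside it, and CYP27A1 at -2.002 and NDRG2 at -1.99 stood likewise at the lower limit.

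**Figure D1:**
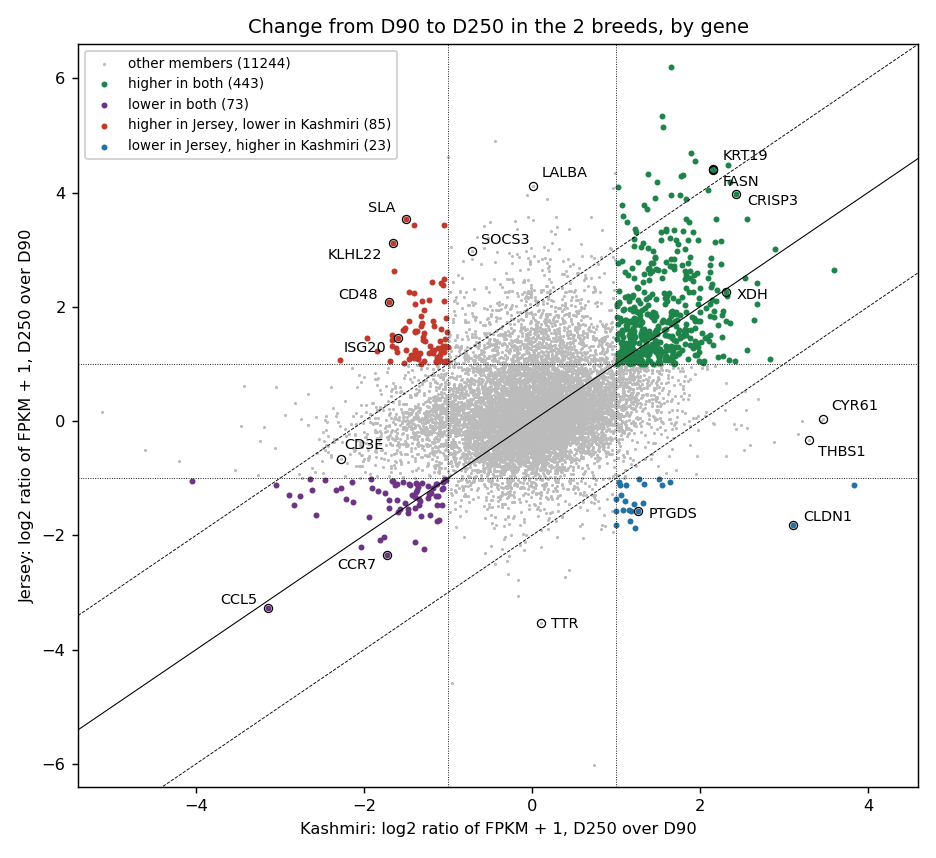
Each point is 1 of the 11868 genes, with the Kashmiri log2 ratio of FPKM + 1 (D250 over D90) on the x axis and the Jersey ratio on the y axis. Dotted lines mark ratios of -1 and 1, the solid line equal ratios and the dashed lines a difference of 2. The 443 genes higher in both breeds (green) outnumber the 73 lower in both (purple), the 85 higher in Jersey and lower in Kashmiri cattle (red) and the 23 with the reverse (blue), and the labelled genes are described in the text. Over genes with at least 1 FPKM in all 4 groups, these patterns hold 197, 65, 82 and 13 genes.

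The balance of these counts depended on how the 4 groups were scaled to each other. The summed FPKM of all entries, with or without a name, was 645410 (D90) and 900667 (D250) in Jersey cattle, against 827916 and 533249 in Kashmiri cattle. The Jersey ratio was the larger in 82.7% of the genes past a difference of 2 with the values as deposited, in 59.8% after scaling to the upper quartile and in 14.8% after scaling to the sum without the milk protein genes. The median difference of all genes moved from 0.10 to -0.22 and to -0.77 in these scalings. All 624 genes that passed the limit in both breeds kept the sign of both ratios under both scalings, and all 585 genes with a difference past 2 kept its sign. This was fixed in advance, because each scaling divides a group by 1 factor and moved ratios and differences by less than these limits. Fewer of the genes stayed past the limits. With the sum, 328 of the 443 genes higher in both breeds kept their pattern. Among genes past the limit in 1 breed, the ratio of that breed could not change sign for the same reason. With the sum, both ratios kept their signs for only 877 of the 1258 higher and 190 of the 334 lower in Jersey cattle. In Kashmiri cattle this held for 445 of the 532 higher and 616 of the 809 lower. Small differences between the breeds can therefore change sign with the scaling, and all ratios and differences of single genes are given as deposited. Of the 41 lists with at least 3 genes, 11 changed the sign of their median difference with the upper quartile and 21 with the sum. Relative to the median of all genes, 1 and 5 lists did. Relative medians are therefore given for most lists, and where the scalings are not mentioned beside one, its sign was the same under both of them. A scaling shifts nearly all genes alike, and subtracting the median of all genes takes most of this shift out. Relative medians that stay similar under the scalings are thus largely so by construction and add no support.

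The genes that were higher at D250 in both breeds included genes of milk fat synthesis, of fat droplet secretion and of the epithelium. FASN, the enzyme that builds milk fatty acids from acetyl units, had 9.92 (D90) and 228 FPKM (D250) in Jersey cattle, against 142 and 639 FPKM in Kashmiri cattle. ACSS2, which activates acetate, had 16.5 (D90) and 97.2 FPKM (D250) in Jersey cattle, against 105 and 376 FPKM in Kashmiri cattle. Both were higher at D250 in either breed, and the lowest of the 4 values was that of Jersey cattle at D90. The log2 ratios of FASN were 4.39 in Jersey and 2.16 in Kashmiri cattle, a difference of 2.23, and those of ACSS2 were 2.49 and 1.82. At D15 FASN had 188 FPKM in Jersey and 829 in Kashmiri cattle, so that D250 stood closer to D15 than to D90 in both breeds. Of the 15 genes of de novo fatty acid synthesis, 4 were higher in both breeds, against 3.73% of all genes: FASN, ACSS2, ACACA, the first committed step, and IDH1, a source of NADPH. The list as a whole did not share this rise. Only 7 of the 15 changed in the same direction, against 59.7% of all genes, and 8 passed the limit in neither breed. The list medians were 0.23 in Jersey and 0.18 in Kashmiri cattle. ACACA differed little between the breeds, with ratios of 2.12 and 2.15. MID1IP1, an activator of the ACACA enzyme, went opposite ways, with ratios of 1.05 in Jersey and -1.03 in Kashmiri cattle. The fatty acid desaturase FADS2 had -1.25 and 0.18.

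The named genes of fat droplet secretion were also higher at D250 in both breeds, by any amount. XDH, the enzyme that anchors the droplet coat to the apical membrane, had 205 (D90) and 986 FPKM (D250) in Jersey cattle, against 323 and 1604 FPKM in Kashmiri cattle. Its ratios of 2.26 and 2.31 were nearly equal, with a difference of -0.05. PLIN2, the protein on the droplet surface, had 535 (D90) and 1051 FPKM (D250) in Jersey cattle, against 225 and 620.3 FPKM in Kashmiri cattle. The membrane mucin MUC1 had 2.48 (D90) and 57.8 FPKM (D250) in Jersey cattle, against 43.03 and 85.04 FPKM in Kashmiri cattle, and the transporter ABCG2 had 1.86 (D90) and 28.4 FPKM (D250) in Jersey cattle, against 33.7 and 80.2 FPKM in Kashmiri cattle. For MUC1 and ABCG2 the Jersey value at D90 was far under the other 3, which gave differences of 3.11 and 2.13. Of the 12 genes of this list, 5 were higher in both breeds, 2 in Jersey cattle alone and 2 in Kashmiri cattle alone, against 3.73%, 10.6% and 4.48% of all genes, and 0 were lower by the limit in either. The list medians were 1.60 in Jersey and 1.19 in Kashmiri cattle. The median difference of 0.20 was close to that of all genes and turned to -0.20 and -0.89 under the scalings. Relative to all genes it went from 0.10 to -0.13 with the sum.

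Several epithelial genes were also higher in both breeds. KRT19, a keratin of luminal epithelium, had 38.2 (D90) and 835 FPKM (D250) in Jersey cattle, against 295 and 1319 FPKM in Kashmiri cattle. ELF5, the factor that specifies secretory alveolar cells, had 12.6 (D90) and 349 FPKM (D250) in Jersey cattle, against 206 and 770.3 FPKM in Kashmiri cattle, and KRT15 had 3.54 (D90) and 61.4 FPKM (D250) in Jersey cattle, against 28.7 and 61.2 FPKM in Kashmiri cattle. In each of the 3 genes Jersey cattle at D90 had the lowest value, and the differences between the breeds were 2.26, 2.79 and 2.71. The ETS factor EHF had 2.46 (D90) and 29.6 FPKM (D250) in Jersey cattle, against 10.8 and 55.2 FPKM in Kashmiri cattle, with ratios of 3.14 and 2.25. Of the 26 keratin and epithelial identity genes, 12 were higher in both breeds, against 3.73% of all genes, 7 passed the limit in neither, and 21 changed in the same direction, against 59.7%. None of them was lower by the limit in Kashmiri cattle, and KRT14, a basal keratin, was the single one lower in Jersey cattle (-1.10). The medians were 1.15 in Jersey and 1.07 in Kashmiri cattle, with a median difference of 0.20 that turned to -0.09 and -0.56 under the scalings, while relative to all genes it was 0.10, 0.13 and 0.21. The summed level of the list was 132 (D90) and 1623 FPKM (D250) in Jersey cattle, against 847 and 2897 FPKM in Kashmiri cattle. These genes mark epithelial cells, and the part of the number of such cells in the milk fat results was not tested.

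Other genes with a large ratio in both breeds had various roles. DNAJC12, a co-chaperone of aromatic amino acid hydroxylases, had 9.66 (D90) and 193 FPKM (D250) in Jersey cattle, against 135 and 695 FPKM in Kashmiri cattle. EFHD1, a mitochondrial calcium-binding protein, had 1.87 (D90) and 62.98 FPKM (D250) in Jersey cattle, against 30.5 and 158 FPKM in Kashmiri cattle. CRISP3, a secreted cysteine-rich protein of exocrine glands, had 2.09 (D90) and 47.8 FPKM (D250) in Jersey cattle, against 16.4 and 92.7 FPKM in Kashmiri cattle. In all 3 the Jersey values were lower than the Kashmiri values on both days, and the Jersey ratio was the larger by 1.83, 2.15 and 1.55. SH3BP4, SELENBP1 and MAPK13, a p38 kinase, had Jersey ratios of 2.75, 2.40 and 2.35 and Kashmiri ratios of 2.25, 2.14 and 2.14. FABP3, the main fatty acid carrier of the lactating gland, had 164 (D90) and 1529 FPKM (D250) in Jersey cattle, against 2159 and 6720.5 FPKM in Kashmiri cattle, with ratios of 3.21 and 1.64. Of the 443 genes of this pattern, 233 (52.6%) had a smaller gap between the breeds at D250 than at D90, against 43.8% of all 11868 genes.

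Among the 73 genes lower at D250 in both breeds, several of those with the largest shared change were chemokines or genes of lymphocytes. Of the 73, 67 kept this pattern with scaling to the upper quartile and 27 with the sum. CCL5, a chemokine made by T and NK cells, had 1710.5 (D90) and 177 FPKM (D250) in Jersey cattle, against 1649 and 187 FPKM in Kashmiri cattle. CCR7, the receptor that guides lymphocytes and dendritic cells to lymph nodes, had 114 (D90) and 21.8 FPKM (D250) in Jersey cattle, against 102 and 29.98 FPKM in Kashmiri cattle, and NKG7, a protein of cytotoxic granules, had 71.00 (D90) and 22.9 FPKM (D250) in Jersey cattle, against 109 and 35.4 FPKM in Kashmiri cattle. For these 3 genes the breeds were close to each other on both days, and the differences between their ratios were -0.13, -0.61 and 0.00. CCL4, another chemokine, stood higher in Jersey cattle on both days, with 1324 (D90) and 422 FPKM (D250) in Jersey cattle, against 280.2 and 46.2 FPKM in Kashmiri cattle. RGS1, a brake on chemokine receptor signalling, stood higher in Kashmiri cattle, with 118 (D90) and 43.4 FPKM (D250) in Jersey cattle, against 609 and 138 FPKM in Kashmiri cattle. The interferon-induced gene IFI6 had 94.96 (D90) and 22.7 FPKM (D250) in Jersey cattle, against 85.9 and 24.7 FPKM in Kashmiri cattle. PPIF, a regulator of the mitochondrial permeability pore, GSTP1, a detoxifying transferase, the kinase MATK and the ligand TNFSF9 had Jersey ratios of -1.54, -1.51, -1.60 and -1.52 and Kashmiri ratios of -1.57, -1.39, -1.47 and -1.71. The breed gap was smaller at D250 for 45 of the 73 genes (61.6%), against 43.8% of all genes.

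**Figure D2:**
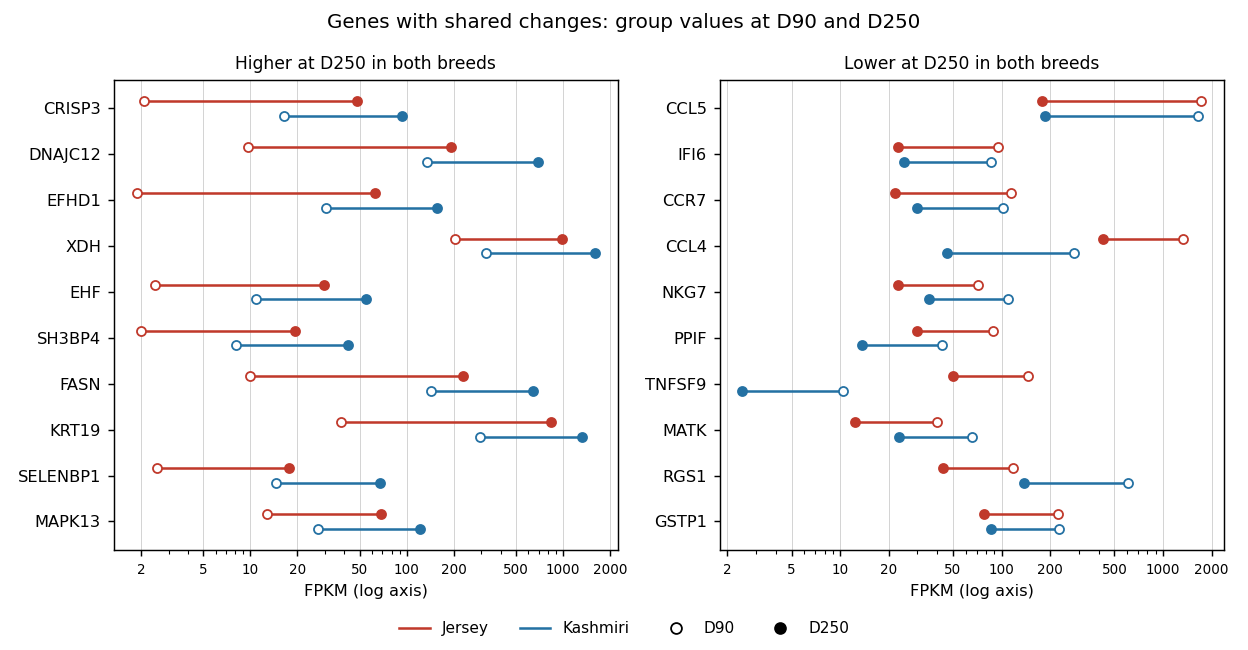
FPKM at D90 (open points) and D250 (filled points) in Jersey (red) and Kashmiri cattle (blue) on a log axis, for the 10 genes with the largest shared change upward (left) and downward (right). On the left the Jersey D90 point is the leftmost in all 10 genes, and on the right the breeds lie close together for CCL5, IFI6, CCR7, NKG7 and GSTP1.

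Several of the genes with the largest opposite changes, higher at D250 in Jersey and lower in Kashmiri cattle, act in leukocytes. CD48, a surface ligand of leukocytes, had 183 (D90) and 776 FPKM (D250) in Jersey cattle, against 269 and 82.00 FPKM in Kashmiri cattle. SLA, an adaptor that dampens antigen receptor signalling, had 86.2 (D90) and 1008 FPKM (D250) in Jersey cattle, against 116 and 40.5 FPKM in Kashmiri cattle. TNFRSF1B, the TNF receptor of leukocytes, had 396 (D90) and 1331 FPKM (D250) in Jersey cattle, against 222 and 79.8 FPKM in Kashmiri cattle. At D90 the Kashmiri value was the higher for CD48 and SLA and the lower for TNFRSF1B. At D250 the Jersey value was the higher for all 3, by a log2 ratio, Jersey over Kashmiri, of 3.23 for CD48, 4.04 for TNFRSF1B and 4.61 for SLA. The Jersey and Kashmiri ratios were 2.08 and -1.70 for CD48, 3.53 and -1.50 for SLA, and 1.75 and -1.47 for TNFRSF1B. The difference of 5.03 for SLA was the largest among genes with 1 symbol, at least 1 FPKM in all 4 groups and at least 10 in 1.

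KLHL22, a substrate adaptor of a cullin ubiquitin ligase, had 10.3 (D90) and 96.99 FPKM (D250) in Jersey cattle, against 28.2 and 8.26 FPKM in Kashmiri cattle, with a difference of 4.77. ISG20, an interferon-induced exonuclease, had 374 (D90) and 1029 FPKM (D250) in Jersey cattle, against 174 and 56.7 FPKM in Kashmiri cattle. PTPN1, a phosphatase that acts on the insulin receptor and on JAK kinases, had 62.3 (D90) and 178 FPKM (D250) in Jersey cattle, against 58.9 and 17.9 FPKM in Kashmiri cattle. The lowest of the 4 values was that of Kashmiri cattle at D250 in each of them. The sialyltransferase ST3GAL3 had 18.02 (D90) and 90.5 FPKM (D250) in Jersey cattle, against 9.15 and 2.69 FPKM in Kashmiri cattle, and the lymphocyte receptor S1PR4 had 8.45 (D90) and 27.00 FPKM (D250) in Jersey cattle, against 12.7 and 4.18 FPKM in Kashmiri cattle. For all of these the Jersey value was the higher at D250 and the Kashmiri value was the lower of its own pair at that day. CSRNP1 and the chromatin factor JADE2 had Jersey ratios of 1.64 and 1.43 and Kashmiri ratios of -1.51 and -1.67. Of the 85 genes, 20 (23.5%) had a smaller breed gap at D250, against 43.8% of all genes. This gap is computed from the same 4 values that define the pattern, so the share is no separate result. Scaling left 35 of the 85 past both limits with the upper quartile and 4 with the sum. All 85 kept opposite signs, which the scalings could not change.

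The reverse pattern, lower in Jersey and higher in Kashmiri cattle, held 23 genes, and all 23 stayed past both limits under both scalings. Both scalings lowered the Jersey ratios and raised the Kashmiri ratios, so no gene could leave this pattern, and its full count is no sign of greater stability. CLDN1, a claudin that seals tight junctions, had 0.405 (D90) and 11.1 FPKM (D250) in Kashmiri cattle, against 9.61 and 2.01 FPKM in Jersey cattle. Its difference of -4.92 rests on a Kashmiri value under 1 FPKM at D90. PTGDS, a prostaglandin D synthase, had 24.2 (D90) and 7.45 FPKM (D250) in Jersey cattle, against 8.62 and 22.1 FPKM in Kashmiri cattle. The kinase PLK2 had 26.4 (D90) and 8.35 FPKM (D250) in Jersey cattle, against 5.50 and 13.5 FPKM in Kashmiri cattle. For PTGDS and PLK2 the breeds changed places, with Jersey cattle higher at D90 and Kashmiri cattle higher at D250.

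The C-type lectin receptor CLEC4D, found on macrophages and neutrophils, had 68.9 (D90) and 22.7 FPKM (D250) in Jersey cattle, against 3.67 and 8.88 FPKM in Kashmiri cattle. CD86, a co-stimulatory ligand of antigen-presenting cells, had 61.9 (D90) and 27.8 FPKM (D250) in Jersey cattle, against 11.3 and 24.4 FPKM in Kashmiri cattle. Jersey cattle were higher on both days for CLEC4D and CD86, but the breeds were nearer to each other at D250. SCIN, an actin-severing protein, BLVRA, which makes bilirubin, the non-muscle myosin MYH14 and LRRC71 had Jersey ratios of -1.11, -1.11, -1.30 and -1.57 and Kashmiri ratios of 1.33, 1.12, 1.06 and 1.01. The breed gap was smaller at D250 for 18 of the 23 genes (78.3%), against 43.8% of all genes. The gap is computed from the same 4 values that define the pattern, so this share is no separate result.

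**Figure D3:**
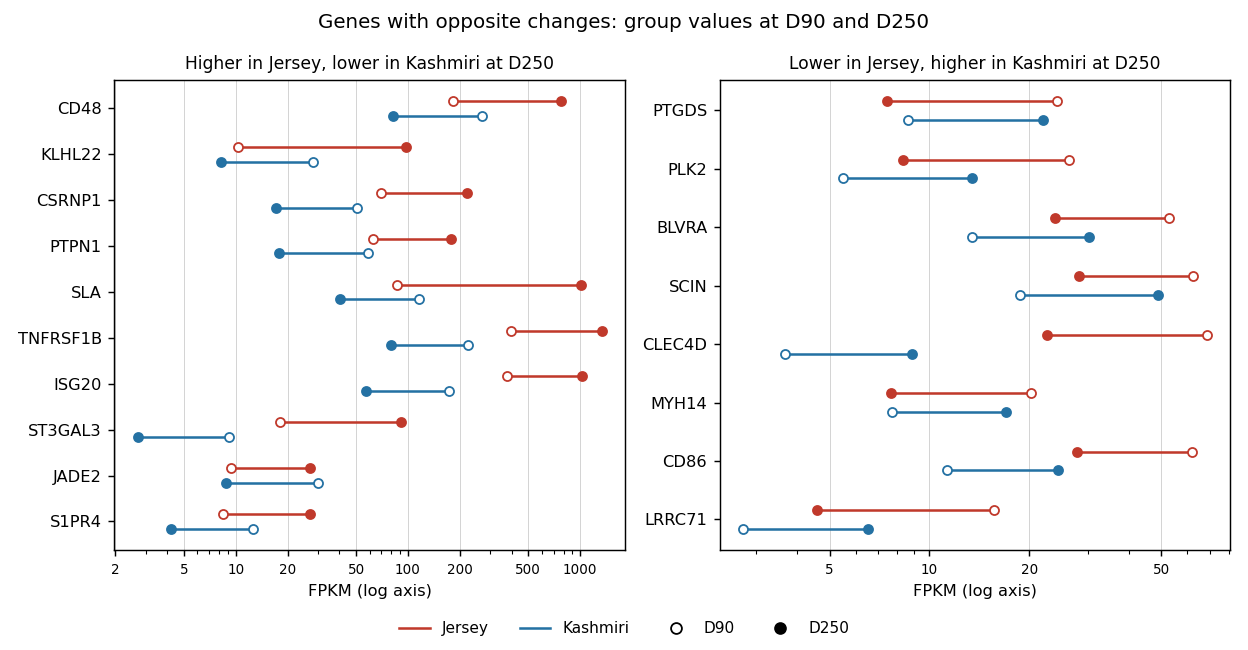
FPKM at D90 (open points) and D250 (filled points) in Jersey (red) and Kashmiri cattle (blue) on a log axis. Left, 10 genes higher at D250 in Jersey and lower in Kashmiri cattle, where the filled Jersey point lies to the right of all others except in JADE2; right, 8 genes with the reverse changes, where the breeds draw nearer or cross.

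Many large differences came from a change in 1 breed while the other stayed nearly level. LALBA, the subunit of lactose synthase that commits the gland to lactose, had 297 (D90) and 5140.1 FPKM (D250) in Jersey cattle, against 12933 and 13031 FPKM in Kashmiri cattle. The peroxidase gene LPO, an antibacterial enzyme of milk, had 1.61 (D90) and 39.5 FPKM (D250) in Jersey cattle, against 64.4 and 61.6 FPKM in Kashmiri cattle, and PIGR, which carries IgA into milk, had 4.76 (D90) and 67.3 FPKM (D250) in Jersey cattle, against 43.9 and 72.2 FPKM in Kashmiri cattle. In all 3 genes the Kashmiri values stayed within a log2 ratio of 0.70, and the Jersey value at D90 was the lowest of the 4. The differences were 4.10, 4.02 and 2.86. These 3 were the milk protein genes with a value in all 4 groups. The other 5 found, CSN1S1, CSN2, CSN3, PAEP and SPP1, were listed at 0 in at least 1 group, and when they were kept at 0 the median of the list turned from 4.02 to -3.24. The study's published values for CSN1S1, CSN2 and CSN3 were high in all 4 groups. LALBA was listed at 0 in both breeds at D15. The study's published LALBA values were well above the deposited ones in all 4 groups and at D15. They changed little from D90 to D250 in either breed. The reason for this disagreement was not tested, so the difference of LALBA is uncertain.

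The other steps of lactose synthesis did not share the difference of LALBA. UGP2, which makes UDP-glucose, had ratios of 1.74 and 1.17 and was the 1 gene of this list higher in both breeds. The galactosyltransferase B4GALT1, the other subunit of lactose synthase, had 1.69 in Jersey and 0.88 in Kashmiri cattle. PGM1, which interconverts glucose phosphates, had -1.21 and 0.28, the reverse order. Over all 15 genes the median difference was -0.28, which was -0.38 relative to all genes and between -0.44 and -0.57 under the scalings.

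The lists of lipid handling differed among themselves. In triglyceride assembly, GPAT4, the first acylation step, had 183 (D90) and 429 FPKM (D250) in Jersey cattle, against 73.8 and 93.2 FPKM in Kashmiri cattle. LPIN2, a phosphatidate phosphatase, had ratios of 1.53 and -0.46, whereas AGPAT2, an acyltransferase, had -0.67 and 1.21. Over the 13 genes the median difference was 0.60 above that of all genes, and between 0.42 and 0.53 above it under the scalings. FABP5 had 456 (D90) and 144 FPKM (D250) in Jersey cattle, against 210.3 and 269 FPKM in Kashmiri cattle, and ACSL4, which activates long-chain fatty acids, had 54.1 (D90) and 160.03 FPKM (D250) in Jersey cattle, against 18.01 and 11.8 FPKM in Kashmiri cattle. These 2 genes lay at the opposite ends of the 13 genes of fatty acid uptake and activation, with differences of -2.01 and 2.12. Cholesterol synthesis and uptake had a relative median of -0.02 over 24 genes, and 0 of them passed a difference of 2. SREBF2, the main regulator of cholesterol genes, had ratios of 0.22 in Jersey and -0.84 in Kashmiri cattle.

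**Figure D4:**
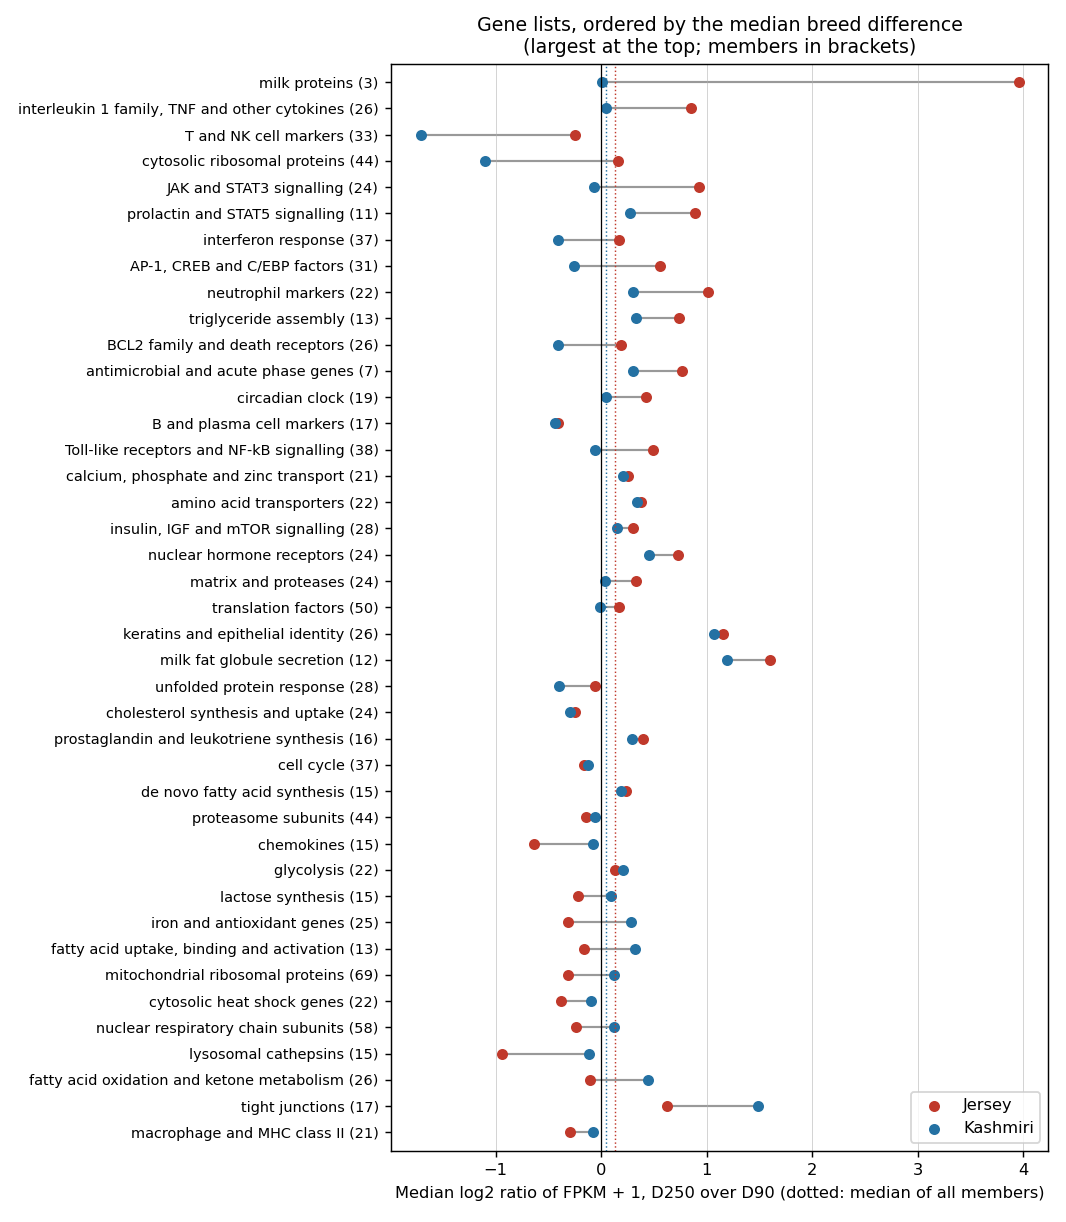
Median log2 ratio of FPKM + 1, D250 over D90 (x axis), in Jersey (red) and Kashmiri cattle (blue) for each gene list with at least 3 genes, ordered by the median of the gene-by-gene difference, with the number of genes in brackets; values are as deposited. Milk proteins, cytokines, T and NK cell markers and ribosomal proteins stand at the top and macrophage genes at the bottom, and for 21 of the 41 lists the median difference changed sign when the groups were scaled to the sum.

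The lists of JAK and STAT3 signalling and of cytokines were among those with the largest differences. SOCS3, the feedback inhibitor of STAT3 and a gene of the first list, had 110.1 (D90) and 874 FPKM (D250) in Jersey cattle, against 16.7 and 9.79 FPKM in Kashmiri cattle. In the cytokine list, OSM, a ligand that activates STAT3, had 142 (D90) and 1145 FPKM (D250) in Jersey cattle, against 7.34 and 9.41 FPKM in Kashmiri cattle, and IL18, a product of the inflammasome, had 15.1 (D90) and 132 FPKM (D250) in Jersey cattle, against 8.56 and 3.89 FPKM in Kashmiri cattle. At D250 these 3 genes were higher in Jersey cattle than at D90 and far above the Kashmiri values, with differences of 3.69, 2.69 and 4.01. In the JAK and STAT3 list, the receptor gene IL4R had opposite changes (1.28 and -1.12), and the shared receptor chain IL2RG had 0.45 and -1.68. The kinase PIM1, a STAT target, had 1.45 and -0.06.

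Of the 24 genes of the JAK and STAT3 list, 9 were higher in Jersey cattle alone, 2 had opposite changes and 6 passed a difference of 2, against 10.6%, 0.716% and 4.08% of all genes. Its medians were 0.93 in Jersey and -0.07 in Kashmiri cattle. Relative to all genes the median difference was 1.18, and 1.10 and 1.04 under the scalings. The cytokine list had 26 genes and a median difference of 1.48, or 1.38 relative to all genes and 1.36 and 1.33 under the scalings. IL1B, the most abundant of them, had 1905 (D90) and 3290.1 FPKM (D250) in Jersey cattle, against 16.1 and 20.5 FPKM in Kashmiri cattle, so that its large breed gap was present on both days and its difference was 0.46. PTX3, a soluble pattern receptor, had 244 (D90) and 1506 FPKM (D250) in Jersey cattle, against 3.92 and 4.66 FPKM in Kashmiri cattle. The prolactin and STAT5 list overlaps the JAK and STAT3 list through SOCS1, SOCS3 and JAK2. Its receptor PRLR had ratios of 0.46 and 0.56, STAT5A had 0.24 and -0.11, and STAT5B had 1.34 and -0.51.

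Immediate early transcription factors took part in the same split. FOS had 542 (D90) and 2332 FPKM (D250) in Jersey cattle, against 69.5 and 27.5 FPKM in Kashmiri cattle. FOSB had 44.01 (D90) and 133 FPKM (D250) in Jersey cattle, against 14.8 and 5.02 FPKM in Kashmiri cattle, and JUNB had 1195 (D90) and 1774 FPKM (D250) in Jersey cattle, against 108 and 40.9 FPKM in Kashmiri cattle. All 3 were higher at D250 than at D90 in Jersey and lower in Kashmiri cattle, with differences of 3.41, 2.96 and 1.95. Of the 31 AP-1, CREB and C/EBP genes 6 passed a difference of 2, 3 had opposite changes by the limit and 12 changed in the same direction, against 4.08%, 0.716% and 59.7% of all genes. The median difference was 0.70 relative to all genes, and 0.62 and 0.47 under the scalings, although by itself it went from 0.80 to -0.30 with the sum. NFIL3 and BHLHE40, repressors that act in the circadian clock, had 2.25 and 2.26 in Jersey and -0.98 and -0.52 in Kashmiri cattle, while the median difference of all 19 clock genes was 0.41 and turned to -0.52 with the sum. The stress gene PPP1R15A, which restores protein synthesis after stress, had 412 (D90) and 914 FPKM (D250) in Jersey cattle, against 82.1 and 43.3 FPKM in Kashmiri cattle. It was the 1 gene of 28 in the unfolded protein response past a difference of 2.

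Genes of Toll-like receptor and NF-kB signalling stood higher in Jersey than in Kashmiri cattle on both days for the examples named. NFKBIA, the inhibitor of NF-kB, had 4932 (D90) and 3889.8 FPKM (D250) in Jersey cattle, against 119.9 and 71.7 FPKM in Kashmiri cattle. Its difference was 0.39. MYD88, the adaptor of Toll-like receptors, had 214 (D90) and 969 FPKM (D250) in Jersey cattle, against 48.99 and 50.1 FPKM in Kashmiri cattle, with a difference of 2.14, and TANK had one of 2.19. Across the 38 genes the median difference was 0.36 and turned to -0.01 and -0.64 under the scalings. In the BCL2 and death receptor list, BCL2A1, a survival factor of myeloid cells, had ratios of 0.36 and -1.13, and BCL2L11, a pro-apoptotic member, had 0.84 and -0.95. The cell cycle inhibitor CDKN1A had 246 (D90) and 366 FPKM (D250) in Jersey cattle, against 131 and 41.8 FPKM in Kashmiri cattle, and CCND3, a cyclin, had 23.3 (D90) and 29.3 FPKM (D250) in Jersey cattle, against 199 and 52.9 FPKM in Kashmiri cattle. For both genes the Kashmiri value at D250 was well under that at D90. The 37 cell cycle genes had a median difference of 0.02, which turned to -0.24 and -0.74 under the scalings.

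Markers of T and NK cells had one of the most uniform patterns. CD3E, a subunit of the T cell receptor complex, had 659 (D90) and 135 FPKM (D250) in Kashmiri cattle, against 31.7 and 19.5 FPKM in Jersey cattle. CD247, its signalling chain, had 196 (D90) and 47.8 FPKM (D250) in Kashmiri cattle, against 14.3 and 10.8 FPKM in Jersey cattle, and CD7 had 71.6 (D90) and 6.97 FPKM (D250) in Kashmiri cattle, against 0.886 and 0.761 FPKM in Jersey cattle. Kashmiri cattle at D90 were the highest of the 4 groups for all 3 genes, and Jersey cattle were lower than Kashmiri cattle on both days. Of the 33 markers kept, 30 were lower at D250 in Kashmiri cattle, against 8.15% of all genes, and 4 of these, CCR7, NKG7, GZMK and PRF1, were lower in Jersey cattle as well. With scaling to the sum 19 of the 33 were lower in Kashmiri cattle. NCR1, an NK cell receptor, was the 1 marker higher in Jersey cattle, with 6.76 (D90) and 56.3 FPKM (D250) in Jersey cattle, against 1.96 and 1.51 FPKM in Kashmiri cattle. The medians were -0.25 in Jersey and -1.71 in Kashmiri cattle. The median difference was 1.35 relative to all genes, and 1.36 and 1.29 under the scalings. The summed level of the markers was 2879.98 (D90) and 722 FPKM (D250) in Kashmiri cattle, against 462 and 335 FPKM in Jersey cattle.

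The protease gene CTSW, which is expressed in the same lymphocytes, had 954 (D90) and 98.4 FPKM (D250) in Kashmiri cattle, against 13.7 and 6.63 FPKM in Jersey cattle. In this it stood apart from the other cathepsins. CTSB and LGMN, lysosomal proteases, had -1.15 and -1.45 in Jersey and 0.15 and 0.02 in Kashmiri cattle. Of the 15 cathepsin and lysosome genes, 6 were lower in Jersey cattle, against 3.62% of all genes, and CTSW was the single one lower in Kashmiri cattle.

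Most macrophage genes had the opposite sign of difference, with the lower ratios in Jersey cattle. APOE, a lipid carrier of macrophages, had 4414 (D90) and 639.9 FPKM (D250) in Jersey cattle, against 1764 and 1574 FPKM in Kashmiri cattle. At D15 APOE was listed at 0 in Jersey cattle, against 463 FPKM in Kashmiri cattle, so its Jersey values may be uncertain. GPNMB, a glycoprotein of lipid-laden macrophages that the list did not hold, had 231 (D90) and 59.7 FPKM (D250) in Jersey cattle, against 69.7 and 137 FPKM in Kashmiri cattle. MRC1, the mannose receptor, had 13.2 (D90) and 4.29 FPKM (D250) in Jersey cattle, against 0.968 and 3.93 FPKM in Kashmiri cattle, and CLEC4E, a pattern receptor likewise outside the list, had 86.9 (D90) and 13.4 FPKM (D250) in Jersey cattle, against 2.30 and 3.47 FPKM in Kashmiri cattle. In all 4 genes the value in Jersey cattle was lower at D250, and the differences were -2.62, -2.90, -2.75 and -3.04. They were named for the size of these differences (APOE also for its mean level), so their common direction carries no weight for the list. The complement genes C1QA, C1QB and C1QC had Jersey ratios of -2.24, -2.31 and -2.49 and Kashmiri ratios of -0.36, -0.55 and -0.44. Of the 21 macrophage and MHC class II genes, 5 were past a difference of -2 (APOE, MRC1, CD86, MSR1 and C1QC), against 0.851% of all genes. A positive difference was found for 7 of the 21, among them CD80, a co-stimulatory ligand, with 1.77 and a joined name that covers ADGRE1 and VAV1 with 2.57. These 2 were higher at D250 in Jersey cattle alone, and the MHC class II chaperone CD74 had ratios of -0.10 and -0.22. The median difference was -0.89 relative to all genes and between -1.12 and -0.97 under the scalings. The summed level of this list was 12914 and 8749.8 FPKM in Jersey cattle and 4585 and 4191 FPKM in Kashmiri cattle. Several genes of the family that codes for MHC molecules are near copies of each other, so their single values are uncertain.

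Neutrophil markers had their higher summed level in Jersey cattle, and several were higher there at D250 than at D90. G0S2, an abundant transcript of neutrophils, had 1632 (D90) and 5758 FPKM (D250) in Jersey cattle, against 20.7 and 25.9 FPKM in Kashmiri cattle. S100A12, a calgranulin, had 2267 (D90) and 4014 FPKM (D250) in Jersey cattle, against 240.4 and 294 FPKM in Kashmiri cattle. On both days the Jersey values were well above the Kashmiri values. Of 22 markers kept, 11 were higher in Jersey cattle alone, against 10.6% of all genes, 8 passed the limit in neither breed and 0 were higher by the limit in Kashmiri cattle, whereas MMP9, a granule protease, was lower in Jersey cattle (-2.17). The summed level of these markers was 10268 (D90) and 23833 FPKM (D250) in Jersey cattle, against 856 and 878 FPKM in Kashmiri cattle. The median difference was 0.65 relative to all genes and between 0.49 and 0.58 under the scalings, but as such it turned from 0.76 to -0.27 with the sum. B and plasma cell markers had a median difference of 0.38 over 17 genes, which turned to -0.49 with the sum. JCHAIN, which joins secreted IgA and IgM, had 11.1 (D90) and 2.93 FPKM (D250) in Kashmiri cattle, against 0.969 and 1.79 FPKM in Jersey cattle. Of the red blood cell markers 1 was kept, and HBB was listed at 0 in Jersey cattle on both days. The part of these cell type markers in the differences of other leukocyte genes was not tested.

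**Figure D5:**
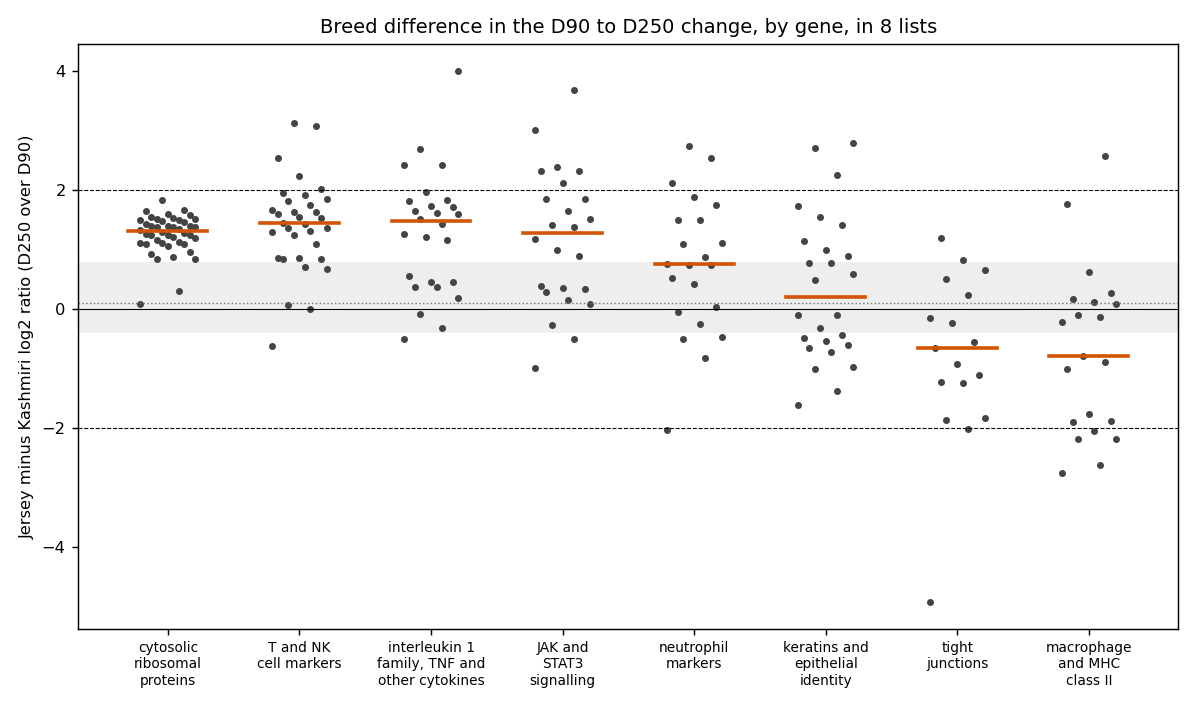
Jersey minus Kashmiri log2 ratio (D250 over D90; y axis) of every gene of 8 lists, 1 point per gene, with the list median as an orange bar, the median of all genes as a dotted line and the interquartile range of all genes (-0.37 to 0.77) as the grey band; values are as deposited. Ribosomal proteins form a tight band at a median of 1.32. T and NK cell markers, cytokines and JAK and STAT3 genes spread around medians above 1, and the medians of tight junction and macrophage genes lie below 0. The medians of neutrophil and keratin genes turned negative with scaling to the sum. That of tight junction genes turned to 0.37 over genes with at least 1 FPKM in all 4 groups.

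Ribosomal proteins of the cytosol had the narrowest range of the 8 plotted lists. RPLP1, a protein of the ribosomal stalk, had 15713 (D90) and 7042 FPKM (D250) in Kashmiri cattle, against 3007 and 3775 FPKM in Jersey cattle. RPS12 had 11287 (D90) and 3804 FPKM (D250) in Kashmiri cattle, against 3089.7 and 2494 FPKM in Jersey cattle, and RPL12 had 745 (D90) and 362 FPKM (D250) in Kashmiri cattle, against 90.02 and 158 FPKM in Jersey cattle. Kashmiri cattle at D90 were the highest of the 4 groups for all 3. Of the 44 genes kept, 29 were lower at D250 in Kashmiri cattle by the limit, against 8.15% of all genes, and 0 changed by it in Jersey cattle. This number fell to 21 with the upper quartile and to 0 with the sum. All 44 had a positive difference, from 0.09 to 1.84, and 0 passed 2, while 42 and 34 had one under the scalings. The median difference was 1.22 relative to all genes, and 1.16 and 1.02 under the scalings. These genes held 24.3% (D90) and 16.4% (D250) of the summed FPKM of all entries in Kashmiri cattle, against 7.41% and 5.82% in Jersey cattle. Many ribosomal protein genes have near-identical processed copies in the genome, so single values are uncertain where reads could be shared.

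Translation factors, which work with the ribosome, were nearer to the median of all genes, with a median difference of 0.25 over 50 genes that turned to -0.14 and -0.81 under the scalings. The elongation factors EEF1G and EEF2 had -0.88 and -0.57 in Kashmiri and 0.17 and 0.33 in Jersey cattle. Mitochondrial ribosomal proteins lay on the other side. Of 69 genes, 55 had a negative difference, against 44.8% of all genes, and 0 passed the limit in either breed. Their median difference was -0.49 relative to all genes and between -0.62 and -0.50 under the scalings. Nuclear genes of the respiratory chain had a relative median of -0.57 over 58 genes. COX4I1, a subunit of cytochrome c oxidase, went against its list with ratios of -0.32 in Jersey and -1.16 in Kashmiri cattle. The proteasome genes had a relative median of -0.19 over 44 genes, and the inducible subunit PSMB8 had 0.23 and -1.16.

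Fatty acid oxidation and ketone metabolism had one of the lowest relative medians, -0.73 over 26 genes, and -0.80 and -0.90 under the scalings. ECI1, an isomerase for unsaturated fatty acids, had 53.95 (D90) and 30.6 FPKM (D250) in Jersey cattle, against 31.4 and 46.2 FPKM in Kashmiri cattle. PPARA, the receptor that controls these genes, had 4.05 (D90) and 3.34 FPKM (D250) in Jersey cattle, against 2.26 and 6.20 FPKM in Kashmiri cattle. For 21 of the 26 genes the Kashmiri ratio was the larger, against 44.8% of all genes, although 1 gene, BDH1, which makes a ketone body, was higher in both breeds with 1.67 and 1.71. In glycolysis, ALDOC and PFKL had differences of -1.52 and -1.52, and the relative median of the 22 genes was -0.24. Iron and antioxidant genes had a relative median of -0.46, with -1.35 and 0.09 for the peroxidase PRDX1. Of the 25 genes, 17 had a negative difference, against 44.8% of all genes. The largest differences by size went the other way, with 1.82 for GPX3 and 1.75 for SLC40A1.

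Some heat shock genes of the cytosol were lower in Jersey cattle at D250. HSPA8, the constitutive HSP70 chaperone, had 1047 (D90) and 467 FPKM (D250) in Jersey cattle, against 1141 and 622 FPKM in Kashmiri cattle. HSPB1 had 603 (D90) and 249 FPKM (D250) in Jersey cattle, against 522 and 417 FPKM in Kashmiri cattle, and the inducible HSPA6 had 40.7 (D90) and 16.02 FPKM (D250) in Jersey cattle, against 15.8 and 26.6 FPKM in Kashmiri cattle. All 3 were lower by the limit in Jersey cattle, with ratios of -1.16, -1.27 and -1.29, whereas the Kashmiri ratios were -0.87, -0.32 and 0.72. Of 22 genes 6 were lower in Jersey cattle by the limit, against 3.62% of all genes, 0 were lower in Kashmiri cattle and 14 passed the limit in neither. The small heat shock gene HSPB8 was higher at D250 in Kashmiri cattle alone, with a Kashmiri ratio of 2.88 and a difference of -3.24. Its Kashmiri values were 0.405 (D90) and 9.37 FPKM (D250). CRYAB, another small heat shock gene, was higher in both breeds, with ratios of 2.06 and 1.28. The median difference was -0.49 relative to all genes. As D90 fell in July and D250 in December in both breeds, season cannot be told apart from stage for these genes.

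Of the 17 tight junction genes, which seal the alveolar epithelium, 14 were higher by the limit at D250 in Kashmiri and 7 in Jersey cattle. The shares over all genes were 8.41% and 15.0%. CLDN4 had 20.3 (D90) and 73.5 FPKM (D250) in Kashmiri cattle, against 10.002 and 9.65 FPKM in Jersey cattle. OCLN, the junction protein occludin, had 1.28 (D90) and 12.3 FPKM (D250) in Kashmiri cattle, against 0.728 and 1.49 FPKM in Jersey cattle, and CLDN3 had 27.1 (D90) and 41.7 FPKM (D250) in Kashmiri cattle, against 4.79 and 14.7 FPKM in Jersey cattle. CLDN4 and OCLN were highest in Kashmiri cattle at D250, and CLDN3 was lowest in Jersey cattle at D90. Of the 17 genes 6 were higher in both breeds and 7 in Kashmiri cattle alone, against 3.73% and 4.48% of all genes. The median difference of -0.65 turned to 0.37 over the genes with at least 1 FPKM in all 4 groups and to 0.24 over those with at least 10 FPKM in 1, so it rests on genes with low values. THBS1 and CYR61 were higher at D250 in Kashmiri cattle and nearly level in Jersey cattle. THBS1, a matricellular protein, had 3.39 (D90) and 42.1 FPKM (D250) in Kashmiri cattle, against 53.1 and 42.05 FPKM in Jersey cattle. CYR61 had 2.30 (D90) and 35.3 FPKM (D250) in Kashmiri cattle, against 2.41 and 2.49 FPKM in Jersey cattle. The Jersey values of both changed little, with ratios of -0.33 and 0.03, and the differences were -3.63 and -3.42.

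In other genes of the lower tail the change lay in Jersey cattle. TTR, a carrier of thyroid hormone and retinol, had 58.1 (D90) and 4.12 FPKM (D250) in Jersey cattle, against 16.7 and 18.01 FPKM in Kashmiri cattle. RARRES1 had 41.9 (D90) and 5.46 FPKM (D250) in Jersey cattle, against 28.7 and 38.02 FPKM in Kashmiri cattle. The Kashmiri values of both genes were nearly level, with ratios of 0.10 and 0.39, and the differences were -3.63 and -3.13. TM4SF1 and the Cdc42 effector CDC42EP4 had differences of -2.64 and -2.71.

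At the upper end, SLCO4A1, an organic anion transporter with opposite changes in the breeds, had 40.8 (D90) and 452 FPKM (D250) in Jersey cattle, against 8.77 and 3.73 FPKM in Kashmiri cattle. The lymphocyte receptor SLAMF6 had 10.01 (D90) and 123 FPKM (D250) in Jersey cattle, against 13.9 and 9.51 FPKM in Kashmiri cattle, and HIP1R, which links clathrin coats to actin, had 46.4 (D90) and 439.6 FPKM (D250) in Jersey cattle, against 41.7 and 26.2 FPKM in Kashmiri cattle. The corepressor subunit PHF12 had 34.1 (D90) and 245 FPKM (D250) in Jersey cattle, against 20.9 and 11.4 FPKM in Kashmiri cattle. In these 4 genes Jersey cattle at D250 had the highest value, and the differences ran from 3.63 to 4.49.

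Interferon response genes divided within the list. ISG15, a ubiquitin-like protein induced by interferon, had 1373 (D90) and 549.6 FPKM (D250) in Jersey cattle, against 248 and 113 FPKM in Kashmiri cattle. Like IFI6 it was lower at D250 in both breeds, with ratios of -1.32 and -1.12. IFIH1, a sensor of viral RNA, had 1.73 and -0.51, and TAP1, the peptide transporter of antigen presentation, had 0.20 and -1.56. Of 37 genes 7 were higher in Jersey cattle alone and 6 lower in Kashmiri cattle alone, against 10.6% and 6.82% of all genes. Those lower in Kashmiri cattle, with or without a change in Jersey cattle, fell from 8 to 2 with the sum. The median difference of 0.81 turned to -0.27 with the sum, and was between 0.50 and 0.71 relative to all genes. Chemokines had no common direction either. CCL14, the most abundant of those kept, had 7509 (D90) and 10502 FPKM (D250) in Jersey cattle, against 278 and 439.9 FPKM in Kashmiri cattle, a difference of -0.17. CCL17, which attracts T cells, had 31.4 (D90) and 8.04 FPKM (D250) in Jersey cattle, against 1.94 and 3.37 FPKM in Kashmiri cattle. The 15 chemokines had a median difference of -0.13.

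The remaining lists lay closer to all genes. Calcium, phosphate and zinc transport had a relative median of 0.25, with SLC20A1, a phosphate carrier, at 0.26 and -1.07 and ATP2C2, a Golgi calcium pump, at 2.86 and 0.82. Amino acid transporters had 0.24, with 1.03 and 0.17 for the glutamine carrier SLC1A5. Matrix and protease genes had 0.15. Among them PLAUR, the urokinase receptor, had 1237 (D90) and 4002 FPKM (D250) in Jersey cattle, against 118 and 108 FPKM in Kashmiri cattle. TIMP1, an inhibitor of matrix proteases, had 185 (D90) and 835 FPKM (D250) in Jersey cattle, against 15.3 and 12.2 FPKM in Kashmiri cattle. Prostaglandin and leukotriene synthesis had -0.03, which turned to 0.02 with the sum, with PTGDS at one end and the thromboxane synthase TBXAS1, with a difference of 2.78, at the other. Nuclear hormone receptors had 0.20, and NR4A1, an immediate early receptor, had 0.61 and -1.74. Insulin, IGF and mTOR genes had 0.20, with IRS2, a docking protein of the insulin receptor, at 1.44 and -1.03. The antimicrobial list had 0.42 over 7 genes, among them LYZ with 0.77 and 0.69.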

How the data were processed

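The study sequenced poly-A RNA, with a stranded kit, from milk cells of Kashmiri and Jersey cattle. Per the methods, reads were trimmed (Trimmomatic) and mapped with Bowtie and TopHat to assembly UMD3.1 by the authors, and Cufflinks and Cuffdiff gave the expression values. The submitters' processing notes name Bowtie2, version 2. The deposited table gives the authors' FPKM, 1 value per gene and group, with its local breed columns taken as Kashmiri. FPKM is relative to the mapped reads, so a few abundant genes can shift all others. Cuffdiff can also list a failed estimate at 0.

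From these values, for entries with a name, the highest of repeated names by mean FPKM over 6 groups was kept (3490 entries were set aside; 36143 without a name were not used), and log2 ratios were computed with a pseudocount of 1. A list median is the median over its genes. Joined names, which cover overlapping genes, were found by each part. Genes named in the text had 1 symbol and were chosen by rule: up to 12 with the largest and 12 with the smallest difference and up to 10 per shared or opposite pattern, with at least 1 FPKM in all 4 groups and at least 10 in 1, and up to 4 per list by mean FPKM or absolute difference. Genes that make up a small count, some enzymes and receptors beside them (ACACA, FADS2, B4GALT1, PRLR, STAT5A, STAT5B, the C1Q genes, KRT14, MMP9 and BDH1) and the cell markers were named after their values were seen. Some genes that the rule names are not reported here. The genes and the 42 lists were chosen with earlier results of these data known. Scaling by the upper quartile and by the sum, other limits and another pseudocount were tried, and centring on the median was added after the data were seen. The code was tested on simulated data. The software was matplotlib 3.10.9, pandas 2.3.3 and numpy 2.4.6 under Python 3.11.15. No reference sequence was used here.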

Additional observations from a re-analysis of the deposited data

How the results depend on the processing

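No paired analysis was possible because the deposited columns hold 1 value per group and no replicate values. Leaving out a sample could not be run for the same reason. Counts are given in the order Jersey ratio larger by 2, Kashmiri ratio larger by 2, higher in both, lower in both, higher in Jersey and lower in Kashmiri cattle, and the reverse. With a pseudocount of 0.1 FPKM they became 770, 277, 842, 150, 159 and 68. Over genes with at least 1 FPKM in all 4 groups, the second became 61, the third 197 and the last 13, and the share with the same direction 57.4%. Over genes with at least 10 FPKM in 1 group, the third became 283 and that share 56.5%. Scaling to the upper quartile gave 260 and 175 for the first pair, 111 lower in both, 35 and 39 with opposite changes, a share of 57.1% and a median difference of -0.22. Scaling to the sum gave 102 and 586, 4 and 145 with opposite changes, a share of 46.7% and a median difference of -0.77. A difference of 1 as the limit gave 2280 and 723. A ratio of 2 as the limit left 28 higher and 2 lower in both, and 0 and 0 with opposite changes. Among list medians, tight junctions turned to 0.37 (at least 1 FPKM in all 4 groups) and 0.24 (at least 10 FPKM in 1), and milk proteins to -3.24 with genes listed at 0 kept. With the sum 21 of 41 lists changed sign (11 with the upper quartile), and those that started beyond 0.58 were these: triglyceride assembly turned to -0.35, neutrophil markers to -0.27, the interferon response to -0.27, AP-1, CREB and C/EBP factors to -0.30 and the BCL2 family to -0.37. The cause was not tested, apart from the genes or scale that each setting changes. Of the differences of the 185 genes the naming rule gave, 34 changed sign with the sum, 10 with the upper quartile, 3 with centring and 1 with the pseudocount of 0.1 FPKM. Among the 83 past a difference of 2 none did under any alternative. The scalings and centring shifted differences by less than 2 and could not have changed these signs. Leaving out repeated names, using 1 symbol only or centring kept each of these counts within 1.5 times.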
